A study of Mus musculus with 6 samples.

Results

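The interferon regulatory factors described here are the transcription factor genes Irf1, Irf2, Irf3, Irf4, Irf5 and Irf8 of the mouse. They were taken by gene symbol from the deposited array values, each through a probe set that the platform annotation gives to that symbol alone, and through the brightest such probe set where there were several. All 6 were found among the 19938 genes measured. Expression was measured on Affymetrix Mouse Gene 1.0 ST arrays in macrophages sorted by flow cytometry from hepa1-6 tumours, which are tumours of a mouse hepatoma line, grown in the liver of C57BL/6 mice. The 3 arrays of the PLX3397 group held macrophages of tumours treated with PLX3397, a small molecule that blocks CSF1R, the receptor macrophages depend on, as well as KIT and FLT3. The 3 arrays of the vehicle group held macrophages of tumours given vehicle. The labels give no age, dose or length of treatment. They call the samples of a group biological replicates without saying that each came from its own animal, so p-values here reflect the spread among these arrays, which may be technical. The description fields add a second name to each sample, which mentions LPS and interferon-gamma for the vehicle samples and IL4 for the PLX3397 samples. These names go against the titles and the treatment labels and were not used to form groups. Whether the arrays hold tumour macrophages or cells stimulated as those names say cannot be told apart here, and each result stands under the titles and treatment labels.

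Interferon regulatory factors share a DNA-binding domain that reads GAAA-type elements, among them the interferon-stimulated response element (ISRE). IRF3 and IRF5 lie in the cytoplasm until kinases below pattern-recognition receptors phosphorylate them, and IRF3 then switches on interferon-beta. IRF1 is itself induced by interferon-gamma, and IRF2 was described as its antagonist on shared elements. IRF4 and IRF8 are the closest relatives of each other, are made mainly in blood cells, and bind many of their sites with partners such as PU.1 and BATF. In macrophages IRF8 serves the development of monocytes and the response to interferon-gamma, and IRF4 is induced by IL4 and GM-CSF and takes part in alternative activation.

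The promoters of the 3 genes that changed are shown, since interferon-gamma and IL4 act on these genes through STAT proteins, whose core element was sought in them. Each sequence is the 250 bases before the annotated start of the gene, 5′ to 3′ on the plus strand, from RefSeq on GRCm38.p6, and capitals mark matches to TTCNNNGAA, the core of the gamma-activated site (GAS). The Irf4 window lies at chr13:30748983-30749232, the Irf8 window at chr8:120736108-120736357 and the Irf1 window at chr11:53769764-53770013.
Irf4: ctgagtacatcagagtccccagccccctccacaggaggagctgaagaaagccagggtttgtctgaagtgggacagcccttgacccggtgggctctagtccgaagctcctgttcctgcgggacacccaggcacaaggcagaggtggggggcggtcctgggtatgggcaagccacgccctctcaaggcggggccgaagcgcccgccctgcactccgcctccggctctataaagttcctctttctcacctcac
Irf8: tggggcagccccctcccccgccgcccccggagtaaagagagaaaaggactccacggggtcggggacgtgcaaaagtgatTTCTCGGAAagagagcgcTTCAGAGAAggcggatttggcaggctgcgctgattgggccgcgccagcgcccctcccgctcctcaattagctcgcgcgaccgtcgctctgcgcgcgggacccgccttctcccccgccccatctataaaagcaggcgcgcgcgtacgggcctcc
Irf1: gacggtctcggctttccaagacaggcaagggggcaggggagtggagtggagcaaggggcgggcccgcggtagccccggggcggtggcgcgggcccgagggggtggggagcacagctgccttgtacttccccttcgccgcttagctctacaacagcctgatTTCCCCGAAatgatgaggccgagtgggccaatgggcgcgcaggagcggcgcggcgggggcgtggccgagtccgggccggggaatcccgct
The Irf4 window has no capitals, the Irf8 window has a pair of matches and the Irf1 window has 1. The Irf8 matches begin at positions -171 and -153 from the start, and the Irf1 match begins at -90. The pattern TTCNNNGAA is its own reverse complement, so a site that matches on either strand matches on both. Of 32851 promoter windows of this length in the RefSeq table, 7.02% held it.

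Other motifs were sought on both strands in the same windows of all 6 genes. The Irf2 window also held the GAS-type core, at position -224, and an ISRE-type pair of GAAA with NN between them, at position -241, a motif present in 2.98% of windows. A kappaB element, the binding site of NF-kB, stood in the windows of Irf1 and Irf2 and in 7.25% of all windows, and did not overlap the GAS-type core in either gene. TTC and GAA with NNNN between them, the spacing that STAT6 prefers, was in none of the 6 genes' windows and in 5.85% of all. The windows of Irf3, Irf4 and Irf5 and the second annotated windows of Irf1 and Irf8 held no match to these 4 motifs. The Irf5 window, chr6:29526375-29526624, lies inside the gene, whose annotated start is at 29526130. The bases before that start were therefore not searched. The second windows of Irf1 and Irf8 also lie inside their genes. A match describes letters in the window and is not evidence of binding.

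Array medians over all probe sets lay between 4.32 and 4.35 on the PLX3397 arrays and between 4.21 and 4.25 on the vehicle arrays, on the log2 scale of the deposited values. Pearson correlations across genes, which are not independent replicates, were 0.9916 to 0.9963 within PLX3397, where replicate 3 gave both lower values, 0.9961 to 0.9966 within vehicle, and 0.9512 to 0.9612 between groups. Of 8 macrophage markers measured, Csf1r, Adgre1, Cd68, Itgam, Cd14 and Lyz2 had group means above 10.9 in both groups, Fcgr1 had 9.03 with PLX3397 and 9.82 with vehicle, and Mertk had 6.51 with PLX3397 and 6.88 with vehicle. Receptor genes of smell, 1194 olfactory and vomeronasal ones, gave each array a background level, the 95th percentile of their values. It lay between 3.56 and 3.58 on the PLX3397 arrays and between 3.52 and 3.53 on the vehicle arrays. All 6 factors exceeded it on every PLX3397 array, and 5 of them on every vehicle array. Levels of different genes come from different probes and are not compared with each other.

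Irf4 and Irf8 were higher and Irf1 was lower in macrophages from PLX3397-treated tumours, while Irf2, Irf3 and Irf5 did not pass the test. In limma with Benjamini-Hochberg adjustment over all genes, 3 of 6 factors passed an adjusted p of 0.05, 2 higher and 1 lower. Among all genes tested 37.8% passed, 19.6% as higher and 18.3% as lower, so the count itself does not set these factors apart. The same 3 passed an adjusted p of 0.01, as did 26.6% of all genes. The groups did not overlap for 5 of 6, against 49.3% of all genes. What differed between the factors was the size of the change, which ran from 4.10 for Irf4 to -0.79 for Irf1 on the log2 scale.

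**Figure D1:**
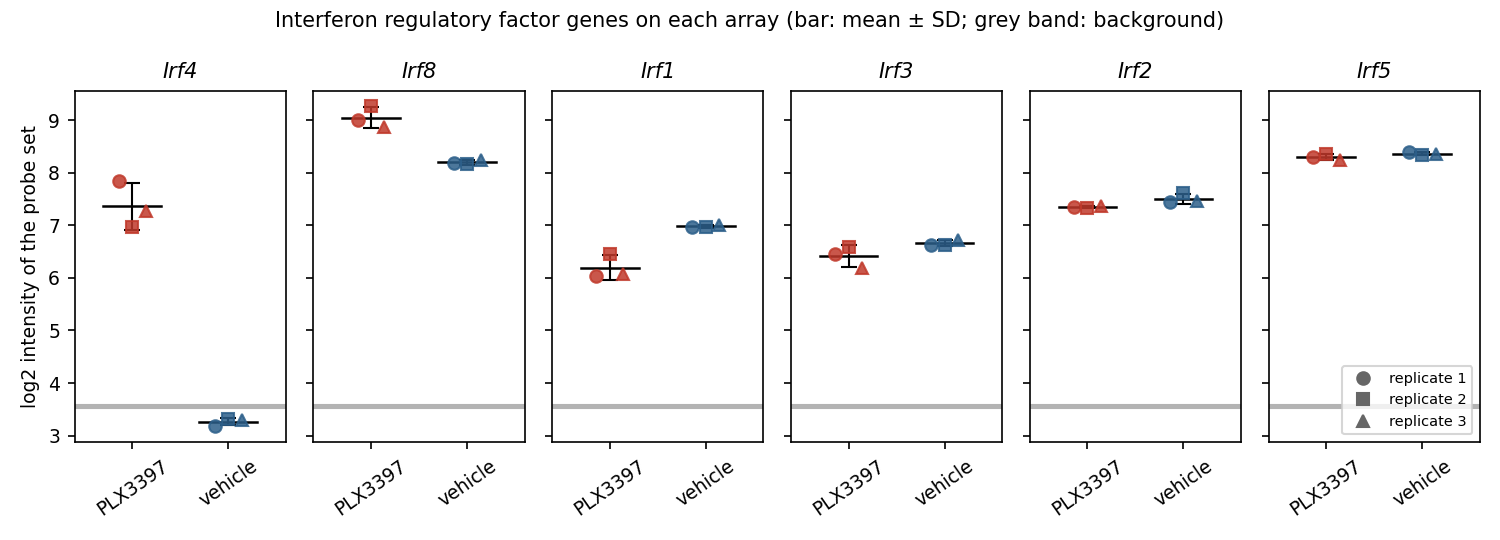
Log2 intensity of each factor's probe set (vertical axis) on the 3 PLX3397 arrays (red) and the 3 vehicle arrays (blue), with the marker shape giving the replicate, the black bar the mean ± SD, and the grey band the background level. Irf4 lies below the band on all 3 vehicle arrays and between 6.97 and 7.85 on the PLX3397 arrays, and levels in different panels are not comparable because the probes differ.

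Irf4, the factor that takes part in alternative activation of macrophages and in dendritic and plasma cell differentiation, had by far the largest change of the 6. Its log2 intensity was 7.85, 6.97 and 7.27 on the PLX3397 arrays and 3.19, 3.32 and 3.30 on the vehicle arrays. All PLX3397 arrays were high and all vehicle arrays were below background, with a gap of 3.66 between the nearest arrays of the groups. The means were 7.36 ± 0.45 with PLX3397 and 3.27 ± 0.07 with vehicle (SD, n = 3 each). The measured change was 4.10 (SE 0.18, limma adjusted p = 1.03e-07). Because vehicle gave only a bound, Irf4 was at least 14.3-fold higher with PLX3397, as the PLX3397 mean against the mean background level of the vehicle arrays. Its SD with PLX3397 was wide beside the median SD of all genes in that group, 0.11. Without PLX3397 replicate 1, the highest array, the change was 3.85, and it stayed between 3.85 and 4.29 without any 1 array. In sorted material such as this, more cells that express a gene and more RNA of it per cell cannot be told apart.

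Irf8, the relative of Irf4 that drives monocyte and dendritic cell development, was 1.81-fold higher. Its log2 intensity was 9.01, 9.27 and 8.88 on the PLX3397 arrays and 8.19, 8.16 and 8.25 on the vehicle arrays. The lowest PLX3397 array was 0.63 above the highest vehicle array. The change was 0.85 (SE 0.10, limma adjusted p = 9.92e-05), the 852nd largest rise among all genes. It ran from 0.75 to 0.94 without any 1 array.

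Both of these factors were therefore higher, by unequal amounts. The log2 difference between the Irf4 and Irf8 probe sets, whose level has no meaning of its own but whose change is free of any scaling of whole arrays, was -1.16, -2.29 and -1.61 on the PLX3397 arrays and -5.00, -4.84 and -4.95 on the vehicle arrays. The groups did not overlap, and the difference shifted towards Irf4 by 3.24 with PLX3397 (exact permutation test, two-sided, p = 0.1, the smallest that 3 arrays against 3 can give). Since Irf4 was below background with vehicle, the shift rests on background values there. The shift follows from the changes of Irf4 and Irf8 given above, so the test adds no separate support to them.

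Irf1, which carries much of the transcriptional response to interferon-gamma, was 1.73-fold lower with PLX3397. Its log2 intensity was 6.03, 6.46 and 6.08 on the PLX3397 arrays and 6.98, 6.96 and 7.01 on the vehicle arrays. Every PLX3397 array was below every vehicle array, by at least 0.50, and PLX3397 replicate 2 lay nearest to vehicle. The mean fell to 6.19 ± 0.24 with PLX3397, against 6.99 ± 0.02 with vehicle (SD, n = 3 each), a change of -0.79 (SE 0.11, limma adjusted p = 2.99e-04). A second, dimmer Irf1 probe set, which the annotation ties to a single cDNA clone, was 4.34 ± 0.25 with PLX3397 and 4.66 ± 0.09 with vehicle, and did not pass when all 21789 probe sets were tested (change -0.32, SE 0.12, limma adjusted p = 0.0654). With the mean of both probe sets the change of Irf1 was -0.56 (limma adjusted p = 2.94e-04).

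Irf3, which is activated by phosphorylation rather than by more transcript, was lower on all PLX3397 arrays but did not pass the test. Its log2 intensity was 6.45, 6.60 and 6.19 on the PLX3397 arrays and 6.64, 6.63 and 6.73 on the vehicle arrays. The nearest arrays of the groups were 0.03 apart. The change was -0.25 (SE 0.11, 95% interval -0.49 to -0.01, limma unadjusted p = 0.0416, adjusted p = 0.0955). It passed as lower without PLX3397 replicate 2 (-0.34, limma adjusted p = 0.0314, where 34.6% of genes passed) and with arrays centred on their medians (-0.38, limma adjusted p = 0.0187, where 37.4% of genes passed), and was -0.14 without PLX3397 replicate 3.

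Irf2, described as a brake on IRF1 and as a driver of the pyroptosis gene Gsdmd, also did not pass. It had log2 intensities of 7.35, 7.33 and 7.37 on the PLX3397 arrays and 7.45, 7.61 and 7.46 on the vehicle arrays. The groups were apart by 0.08 at the nearest arrays, and the change was -0.16 (SE 0.08, 95% interval -0.34 to 0.02, limma adjusted p = 0.154). Centring each array on its median gave -0.29 (limma adjusted p = 0.0167), a setting that lowered the median change of all genes to -0.09, against 0.04 as deposited.

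Irf5, which drives IL12 and TNF in macrophages of the inflammatory type, had overlapping groups. Its log2 intensity was 8.30, 8.36 and 8.24 on the PLX3397 arrays and 8.40, 8.34 and 8.36 on the vehicle arrays. The change was -0.06 (SE 0.08, limma adjusted p = 0.573), and the 95% interval of -0.24 to 0.11 leaves out changes of the size seen for Irf1 and Irf8.

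**Figure D2:**
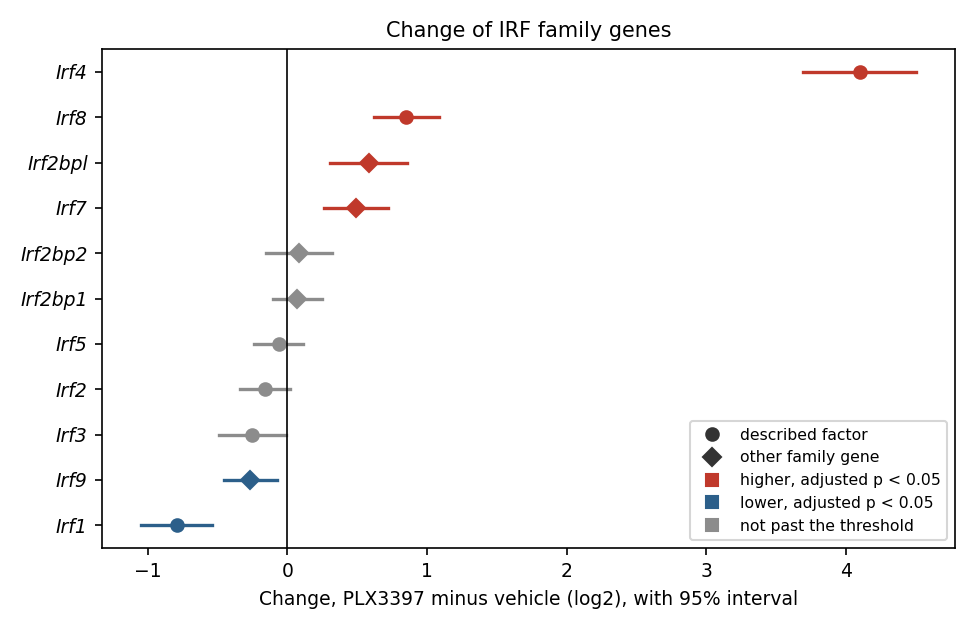
Change of each gene of the family, PLX3397 minus vehicle on the log2 scale (horizontal axis), with 95% intervals of the limma fit that are not adjusted for the number of genes. Circles are the 6 described factors, diamonds are other family genes, red and blue mark genes past the threshold as higher and lower, and Irf4 at 4.10 stands beyond all the others, which lie between -0.79 and 0.85.

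The genes with array profiles nearest to each changed factor were found as the smallest root-mean-square distance over the 6 arrays, after each gene's vehicle mean was subtracted, among 12938 genes above background in at least 1 group. For Irf4 they were Ccn3, a secreted matrix protein, at a distance of 0.19, Bhlhe40, a transcription factor of activated myeloid and T cells, at 0.20, and Socs2, a STAT5-induced inhibitor of cytokine signalling, at 0.21. Their changes were 4.16, 4.05 and 3.96. For Irf8 the nearest were Emilin2 (0.04), Serpinb2 (0.04) and Ahnak (0.04), and for Irf1 they were Xylt2 (0.02), Sgpp1 (0.03) and Plrg1 (0.03). These distances describe the arrays only. As 37.8% of all genes differed between the groups, a difference in the same direction is common. The size of the Irf4 change was not, as 0.15% of genes had a larger absolute change. For Irf8 and Irf1 9.9% and 11.1% of genes did.

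Of the rest of the family, 5 of 6 listed genes were measured. With PLX3397 2 were higher and 1 lower, where 19.6% of all genes were higher and 18.3% lower. Irf7, the interferon-inducible factor that amplifies interferon-alpha, was 10.54, 10.83 and 10.75 on the PLX3397 arrays and 10.36, 10.17 and 10.11 on the vehicle arrays. The groups did not overlap, and it rose by 0.49 (SE 0.10, limma adjusted p = 0.00349). Irf2bpl, named for the similarity of its product to IRF2-binding proteins, rose by 0.58 (limma adjusted p = 0.00387). Irf9, the DNA-binding part of the ISGF3 complex below the type I interferon receptor, fell by 0.27 (limma adjusted p = 0.0309), a call lost with quantile normalisation (adjusted p = 0.153), with the replicate number as a block (adjusted p = 0.0526) and without any of 5 of the 6 arrays (adjusted p from 0.0679 to 0.107). Irf2bp1 and Irf2bp2 had changes of 0.07 and 0.09 (adjusted p = 0.531 and 0.577).

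Partners with which IRF4 and IRF8 bind DNA changed in both directions. Of 15 measured partner genes 5 were higher and 4 lower, with a median change of 0.22 against 0.04 over all genes, of which 19.6% were higher and 18.3% lower. The partner genes called higher numbered 8 with quantile normalisation and 7 without PLX3397 replicate 3, with 4 lower in both. Of all 19938 genes, 3335 were higher and 3705 lower with quantile normalisation, and 3776 and 3325 without that array. Ikzf1, the lymphoid and myeloid factor Ikaros, fell to 6.73 ± 0.22 with PLX3397, against 8.10 ± 0.07 with vehicle (change -1.37, SE 0.11, limma adjusted p = 6.06e-06). Batf, which pairs with JUN proteins and IRF4 on composite elements, fell by 1.17 (limma adjusted p = 6.55e-06), and its relative Batf2 fell by 0.72. Spi1, which encodes the partner PU.1, was 10.64 ± 0.04 with PLX3397 and 10.96 ± 0.06 with vehicle, a fall of 0.32 (limma adjusted p = 0.00903). Batf3, another member of the Batf family, rose by 0.45.

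Of 22 measured genes for sensors, adaptors and kinases that act on IRF proteins, 11 were lower, 4 were higher and 7 did not pass, against 18.3% lower and 19.6% higher among all genes. Their median change was -0.21. With centring 12 were lower and 2 higher, where 5169 of all 19938 genes were lower and 2282 higher. The RNA sensor gene Tlr8 fell by 1.58 (SE 0.11, limma adjusted p = 1.66e-06) and Ikbke, one of the kinases that phosphorylate IRF3, fell by 1.46 (SE 0.09, limma adjusted p = 1.2e-06). The other IRF3 kinase gene, Tbk1, fell by 0.62, and the RNA sensor genes Ifih1 and Tlr3 fell by 1.32 and 1.03. Sting1, the adaptor of the cytosolic DNA route to IRF3, went the other way. It had log2 intensities between 8.56 and 8.96 on the PLX3397 arrays and between 6.34 and 6.52 on the vehicle arrays, and rose by 2.35 (SE 0.11, limma adjusted p = 1.54e-07). Slc15a4, which serves the TLR7 to TLR9 route to IRF5, rose by 0.68.

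Of 7 interferon genes measured, 5 were not above background on any array, among them Ifnb1, at 3.36 ± 0.08 with PLX3397 and 3.39 ± 0.13 with vehicle. Ifng lay near it, at 3.74 ± 0.02 with PLX3397 and 3.86 ± 0.34 with vehicle (limma adjusted p = 0.57). Ifnl2, a type III interferon gene, was above background on all arrays, at 6.20 ± 0.14 with PLX3397 and 6.04 ± 0.15 with vehicle (limma adjusted p = 0.248). Ifnl3 was annotated only on a probe set with several symbols and was not read. Whether the Ifnl2 signal comes from that gene alone was not tested. Ifna2 passed as higher by 0.26 but lay below background on all arrays, belongs to a family of near-identical genes, and lost the call with quantile normalisation (limma adjusted p = 0.104) and with centring (0.307). Of 12 interferon receptor and JAK-STAT genes 3 were higher and 3 lower, against 19.6% and 18.3% of all genes. With quantile normalisation or centring 2 were higher and 4 lower. Of all 19938 genes, 3335 were higher and 3705 lower with quantile normalisation, and 2282 and 5169 with centring. Socs1, an inhibitor of JAK kinases and a target of both interferon-gamma and IL4, rose by 1.52 (SE 0.12, limma adjusted p = 6.34e-06). Stat3 and Socs3 rose by 0.54 and 0.30, the latter call being lost with quantile normalisation (limma adjusted p = 0.117) and with centring (0.181). Jak2 and Ifngr1, which serve the interferon-gamma receptor, fell by 0.77 and 0.66, and the type I receptor chain gene Ifnar2 fell by 0.62. The other chain genes Ifngr2 and Ifnar1 did not pass (limma adjusted p = 0.925 and 0.85), nor did Jak1 and Tyk2 (0.415 and 0.769).

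Of 18 listed genes for the IL4 and GM-CSF receptors and for factors upstream of Irf4 or otherwise tied to it, 15 were measured. Il2rg, Jak3 and Nfkb1 are not analysed here. Prdm1, counted here, is also in the list of genes linked to IRF4 given below. With PLX3397 9 of the 15 were higher and 6 lower, where 37.8% of all genes passed in either direction. With quantile normalisation Csf2ra and Relb lost their calls (limma adjusted p = 0.0735 and 0.0962), as did Csf2ra with centring (0.0908). Csf2rb and Csf2rb2, near-identical genes for the GM-CSF and IL3 receptor beta chains whose probes can share signal, rose by 1.84 and 1.85 (limma adjusted p = 6.84e-08 and 1.33e-07). The IL4 receptor gene Il4ra rose by 0.57, its partner chain Il13ra1 by 1.26, Stat6 by 0.72 and the demethylase gene Kdm6b by 0.39. Bcl6, the germinal centre repressor that IRF4 opposes in B cells, fell to 5.91 ± 0.14 with PLX3397, against 8.16 ± 0.17 with vehicle (change -2.25, SE 0.11, limma adjusted p = 1.88e-07). Rel, the NF-kB subunit that activates Irf4 in lymphocytes, fell by 1.05.

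Genes linked to each factor in the literature of macrophages and dendritic cells were followed as lists, whose members overlap and often answer to other factors too. Members were counted without regard to whether the factor raises or lowers them, so a list median does not measure the activity of a factor. The counts of these lists stand against 19.6% higher and 18.3% lower among all genes. Over all 19938 genes, quantile normalisation gave 3335 higher and 3705 lower, and centring gave 2282 and 5169. Leaving out PLX3397 replicate 3 gave 3776 higher and 3325 lower. Among the lists around the factors, genes linked to IRF4 had the highest median change, 1.28, with 10 of 14 higher and 1 lower. The chemokine genes Ccl17 and Ccl22 and the arginase gene Arg1 led it with rises of 7.19, 5.40 and 5.57 (limma adjusted p = 4.51e-10, 3.58e-08 and 1.1e-08). Mgl2, a lectin gene of IRF4-dependent dendritic cells, was not above background with vehicle and had at least a 5.84-fold higher level on the PLX3397 arrays. Retnla, an IL4-induced gene of the list, was not above background on any array, and Prdm1, which IRF4 activates in plasma cells, fell by 0.93.

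Genes linked to IRF8 were divided, 5 of 15 being higher and 7 lower with a median change of -0.13, although Irf8 itself was higher. Il12b, the IL12 subunit gene that IRF1, IRF5 and IRF8 all activate and that is also in the IRF2 list, had log2 intensities of 5.82 ± 0.69 with PLX3397 and 8.92 ± 0.06 with vehicle, a fall of 3.10 (SE 0.26, limma adjusted p = 8.36e-06). Il18 and the inflammasome gene Nlrc4 fell by 1.66 and 0.81. Cybb, the oxidase subunit gene that PU.1 and IRF8 activate together, fell by 0.69, while the lysosomal protease gene Ctss rose by 0.60. Without PLX3397 replicate 3 the list had 6 higher and 5 lower.

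Of 13 genes linked to IRF1, 5 were higher and 3 lower, and with quantile normalisation or centring 3 were higher and 3 lower. Nos2, the nitric oxide synthase gene that needs IRF1 for its induction in macrophages, rose by 3.58 (SE 0.12, limma adjusted p = 1.56e-08), and the inflammatory caspase gene Casp1 fell by 1.82 (SE 0.14, limma adjusted p = 4.96e-06). Il27 fell by 0.71. The IRF3 list had 0 higher and 6 lower of 9, with a median of -0.62, led by the antiviral genes Ifit1, Ifit3 and Ifit2, which were 3.61-fold, 2.83-fold and 2.35-fold lower. Ifit3 has a near-identical neighbour that can share its probes. Of 5 genes linked to IRF2, 1 was higher and 3 lower, with Il12b, Vcam1 and Tlr3 falling by 3.10, 1.17 and 1.03, and Gsdmd at 0.14 (limma adjusted p = 0.351).

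Of 12 genes linked to IRF5, 4 were higher and 4 lower, with a median of 0.01, and with centring 4 were higher and 6 lower. Besides Il12b, the cytokine gene Il10 fell by 2.87 (SE 0.24, limma adjusted p = 6.5e-06) and Tnf fell by 1.21. Il1rn, the IL1 receptor antagonist gene, and Il6 rose by 1.26 and 0.85. Il23a had a mean at or below background in both groups.

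**Figure D3:**
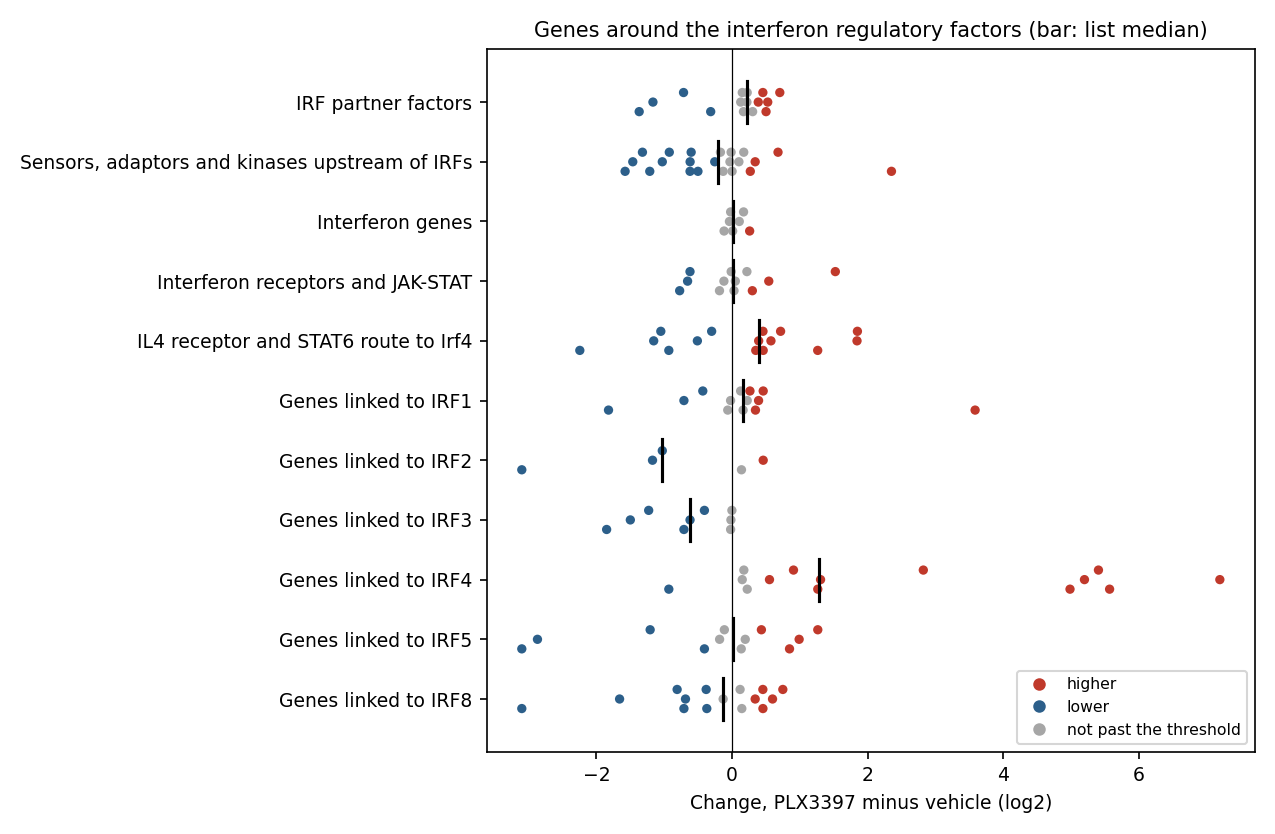
Change of each measured gene, PLX3397 minus vehicle on the log2 scale (horizontal axis), by list (rows), with red and blue points past the threshold as higher and lower, grey points not past it, and a black bar at the list median. The IRF4 list reaches 7.19 and has the rightmost median at 1.28, while points of the IRF3 list lie at or below 0.

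IRF4 and IRF8 mark several cell types besides macrophages, and markers of those were read in the same arrays. The marker counts here and below stand against 19.6% higher and 18.3% lower among all genes. Of 5 measured markers of mature dendritic cells 4 were higher with PLX3397, and their mean log2 level per array lay between 7.15 and 7.93 with PLX3397 and between 4.53 and 4.79 with vehicle. These markers include Ccl22 and Fscn1, which are also in the IRF4 list, and Socs2, which is also among the nearest profiles of Irf4. The chemokine receptor gene Ccr7 rose by 3.35 and Fscn1 by 1.30. Of 7 markers of conventional dendritic cells of the IRF4-dependent type 4 were higher and 0 lower, with Zbtb46 at 4.77 ± 0.05 with PLX3397 and 4.38 ± 0.07 with vehicle, and mean levels of 4.51 to 4.77 and 3.71 to 3.86. Flt3 was 3.83 ± 0.15 with PLX3397 and 3.57 ± 0.03 with vehicle (limma adjusted p = 0.050, not past the threshold). Cd209a was above background on 2 PLX3397 arrays and 1 vehicle array, and Dpp4 on 1 PLX3397 array only. Neither passed (limma adjusted p = 0.218 and 0.419). Mgl2 and Clec10a of this type are also in the IRF4 list. The part of these cells in the changes of Irf4, of Irf8 and of the IRF4 list was not tested.

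Of 8 markers of the IRF8-dependent dendritic cells 3 were higher and 3 lower, against 19.6% and 18.3% of all genes. Their mean levels were 5.04 to 5.07 with PLX3397 and 5.15 to 5.22 with vehicle. Xcr1, Clec9a and Itgae were not above background on any array, although Itgae was called higher. Cadm1, Tlr3, Wdfy4, Naaa and Batf3 were above it on every array. Of these, Cadm1, Tlr3 and Wdfy4 fell by 0.81, 1.03 and 0.37, and Naaa and Batf3 rose by 0.29 and 0.45. Siglech, which defines plasmacytoid dendritic cells, a type with high Irf8, was not above background on any array, and of 7 markers of these cells 1 was higher and 4 lower, with mean levels of 5.05 to 5.13 and 5.24 to 5.34. Of 8 B cell markers 3 were higher and 0 lower, with mean levels of 3.52 to 3.71 with PLX3397 and 3.30 to 3.40 with vehicle. Cd79b was above background on every array, at 5.20 ± 0.14 with PLX3397 and 4.58 ± 0.17 with vehicle (change 0.62, limma adjusted p = 0.00122). Ms4a1 and Cd79a, also called higher, were not above it on any array. Of 7 plasma cell markers, a type with high Irf4, 1 was higher and 1 lower, with mean levels of 5.21 to 5.36 and 5.23 to 5.26, and Jchain was not above background on any array.

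Markers of other cell types were read in the same way, again against 19.6% higher and 18.3% lower among all genes. Of 7 endothelial markers 5 were higher and 0 lower, with mean levels of 5.07 to 5.19 with PLX3397 and 4.14 to 4.26 with vehicle. Of 10 markers of mast cells, basophils and eosinophils, of which basophils and mast cells can express Irf4, 4 were higher and 1 lower, with mean levels of 4.30 to 4.38 and 3.70 to 3.73, while Cpa3, Mcpt8, Fcer1a and Prg2 were not above background on any array. In that list Hdc rose by 3.59, Gata2 by 3.22, Kit by 1.08 and Siglecf by 0.44, and Ccr3 fell by 2.25. Of 9 T cell markers 2 were higher and 0 lower, Lat by 1.95 and Il7r by 2.25, with mean levels of 4.58 to 4.71 with PLX3397 and 4.07 to 4.26 with vehicle. Cd3e, Cd4, Cd8a and Cd5 were above background on every array and did not pass, and Cd3d and Cd3g were not above background on any array. The part of these cells in the changes of Irf4 and Irf8 was not tested. Among NK cell markers 7 of 8 were not above background on any array. Neutrophil markers were higher in 3 of 10 cases and lower in 1, and monocyte markers in 2 of 5 and 1. Of those called higher, Ly6g and Ltf among neutrophil markers and Ccr2 among monocyte markers were not above background on any array. Mean levels of the monocyte markers were lower with PLX3397, at 4.10 to 4.26 against 4.51 to 4.65 with vehicle, and Treml4 was the marker called lower. Those of the neutrophil markers were 4.43 to 4.53 with PLX3397 and 4.32 to 4.43 with vehicle. Hepatocyte and hepatoma markers were higher in 1 of 7 cases and lower in 0, while fibroblast and stellate cell markers were higher in 0 of 7 and lower in 2. Macrophage markers were higher in 2 of 8 cases and lower in 3, with mean levels of 10.66 to 10.81 with PLX3397 and 10.71 to 10.75 with vehicle.

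**Figure D4:**
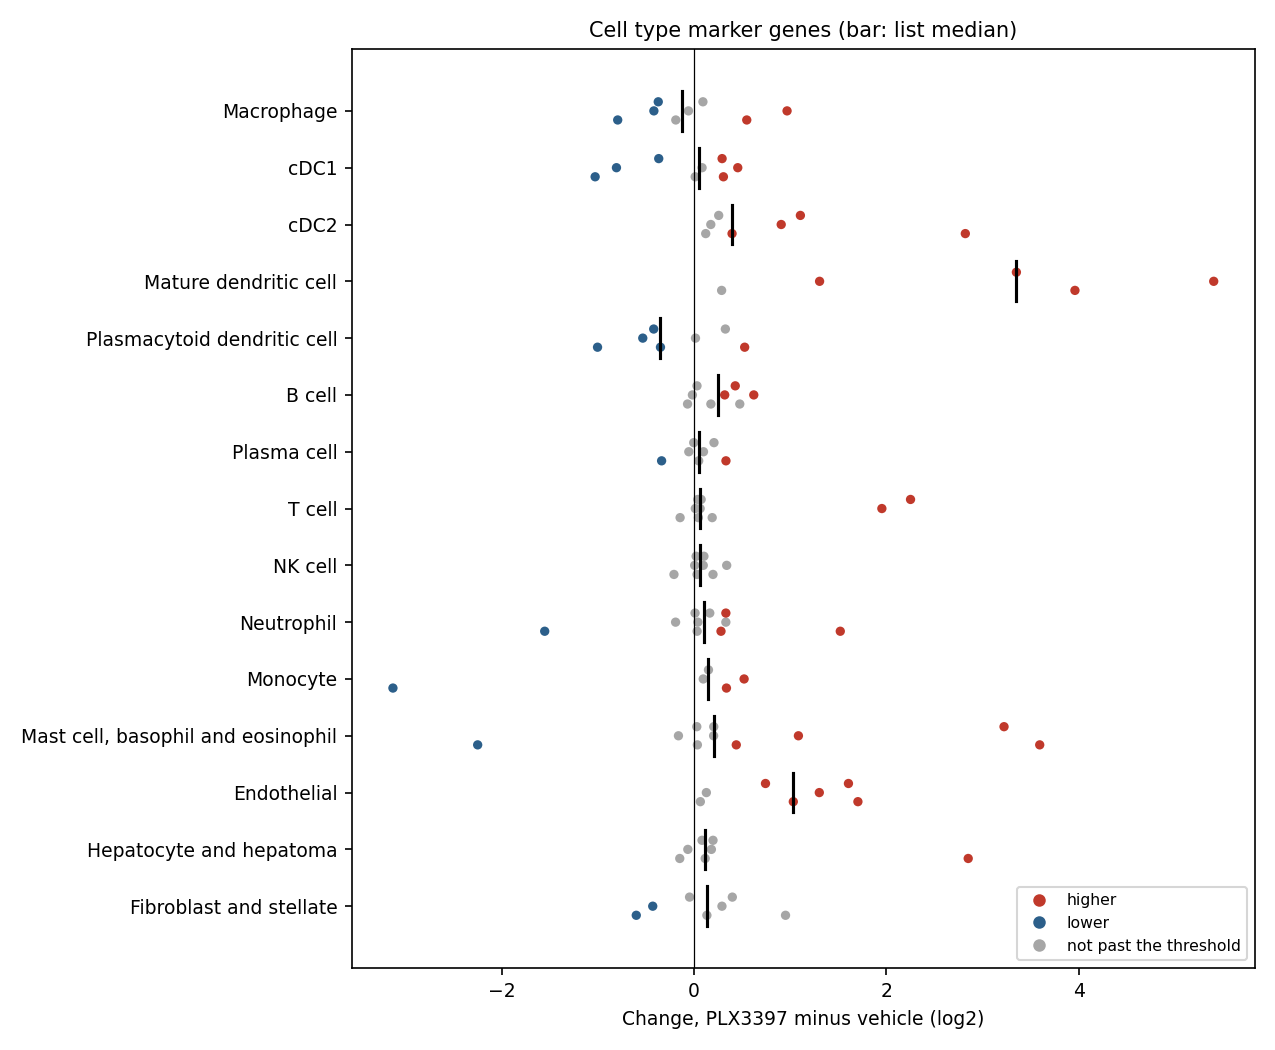
Change of each measured marker gene, PLX3397 minus vehicle on the log2 scale (horizontal axis), by cell type (rows), with red and blue points past the threshold as higher and lower, grey points not past it, and a black bar at the list median. The mature dendritic cell row has the rightmost median at 3.35, and the B cell, plasma cell and NK cell rows stay between -0.34 and 0.62.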

How the data were processed

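The values the authors deposited are log2 intensities by probe set, the base being read from their range of 1.57 to 13.47. How they were summarised, normalised or filtered is not given in the sources used here. MAS5 appears, without a role, in the submitters' processing notes. Of 28941 probe sets, 21789 carry 1 gene symbol in the platform annotation, 1621 several and 5531 are unnamed here. Each gene was read from its brightest probe set. Several were available for 999 genes, and among these factors for Irf1 only.

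The deposited values were fitted in R 4.3.3 by limma 3.58.1, using lmFit with a term for group alone and then eBayes, two-sided, after a check on simulated data, with adjustment over 19938 genes. Changes are PLX3397 minus vehicle. Precision is limited by having 3 arrays in each group. No batch label was at hand to test. The replicate number did not pair arrays, as deviations of same-numbered arrays correlated at -0.0104, 0.008 and -0.0133.

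The 6 factors and the lists were chosen with earlier results of these data known. Of 289 list memberships 263 were measured, and Rigi was read under its earlier symbol Ddx58. The text names the factors, the 3 largest changes past the threshold in each list around them, and the nearest profiles. Other named genes, and the marker genes given with values, were chosen after their values were seen.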

Additional observations from a re-analysis of the deposited data

How the results depend on the processing

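The calls of Irf1, Irf4, Irf5 and Irf8 were the same in all 17 alternatives, with changes from -0.93 to -0.56, 3.85 to 4.29, -0.20 to -0.03 and 0.72 to 0.94. The alternatives were quantile normalisation, centring of arrays, filters on dim genes, the replicate block, other variance settings, array weights, other summaries of probe sets, other thresholds, and fits without each array in turn. Centring of each array on its median raised the number of factors past the threshold to 5, by adding Irf2 and Irf3 as lower, and it gave a split of all calls of 2282 higher and 5169 lower, where the values as deposited gave 3900 and 3639. The number of factors past the threshold was 3 to 4 without any 1 array. Requiring a change beyond 1.2-fold left 3612 of 7539 genes past the threshold, with the same 3 factors, since fewer small changes qualify by construction. With the replicate block 7154 genes and 3 factors passed, and it changed the call of no factor. The shift of Irf4 against Irf8 was 2.98 to 3.55 without any 1 array, and 3.24 by replicate pairs, where an exact sign-flip test cannot go below p = 0.25. List counts with quantile normalisation, with centring and without PLX3397 replicate 3, which were added after the data were seen, left the IRF4 list at 10 higher and 1 lower, the IRF3 list at 0 and 6 and the IRF2 list at 1 and 3 each time. Other lists moved: the partners had 8 and 4 with quantile normalisation, 4 and 4 with centring and 7 and 4 without the array; the IRF1 list 3 and 3 with either scaling and 4 and 3 without the array; the IRF5 list 4 and 5 with quantile normalisation and 4 and 6 with centring; the IRF8 list 5 and 6, 4 and 7, and 6 and 5 in that order of settings; the sensors 5 and 10, 2 and 12, and 4 and 10. The IL4 route had 8 and 5 with quantile normalisation and 8 and 6 with centring, the interferon genes 0 and 0 with both, the receptors 2 and 4 with both, and the other family genes 2 and 0 with quantile normalisation and without the array. Over all genes the split was 3335 higher and 3705 lower with quantile normalisation, and 3776 and 3325 without PLX3397 replicate 3. The cause of these moves was not tested. Signal over background limits Irf4 with vehicle and Ifnb1 in both groups, where the values give only a bound.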
